A study of Mus musculus with 11 samples.

Results

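The genes described here are 10 interleukin and cytokine genes of the senescence-associated secretory phenotype (SASP), the set of secreted factors that senescent cells release. They are Il6, Il1a, Il1b, Il1rn, Il11, Il33, Lif, Tnf, Csf1 and Csf2, and each symbol matched 1 of the 56941 genes of the deposited count table. Poly(A) RNA of mouse pituitary cells, purified by fluorescence-activated sorting, was sequenced in 5 libraries labelled APC-mutant, whose titles also carry the word Lef1, and 6 control libraries labelled wildtype, 4 titled ROSAJC and 2 titled ROSAE. The purpose stated for the series is to find the genes downstream of oncogenic APC in pituitary tumours by setting sorted APC-mutant cells against wildtype pituitary stem cells. The APC allele, the promoter that drives it, the strain, age and sex of the mice, any pooling of animals and the sorting gate are not given in the sources used here. The mutant libraries alone carry the title prefix JS, and any batch that goes with it cannot be told apart from genotype.

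APC is a scaffold of the complex that destroys beta-catenin, and its loss switches on WNT target genes. The cytokines of the SASP fall into families with distinct receptors. IL-1 alpha and IL-1 beta bind the IL-1 receptor and activate NF-kappaB, IL-1RN blocks that receptor, and IL-33 is a nuclear alarmin of the same family. IL-6, IL-11 and LIF signal through the shared receptor chain gp130 to STAT3. TNF acts through its own receptors, and CSF1 and CSF2 sustain macrophages and other myeloid cells. LIF and IL-6 are known regulators of hormone-producing cells in the pituitary.

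Total counts ran from 15740857 to 27280761 per library, and edgeR's quasi-likelihood test was run on 20622 genes. Levels are counts scaled to library size with TMM factors (CPM), and a positive log2 fold change means higher in APC-mutant cells. Calls required an adjusted p below 0.05 after Benjamini-Hochberg correction over every tested gene. A count of 0 allows up to 3 counts, or 0.114 to 0.198 CPM depending on the library, counting error only. Markers of hormone-producing cells summed to between 60002 and 95238 CPM in the wildtype libraries, where pituitary stem cell markers summed to between 2289 and 3253 CPM. The controls named as stem cells thus held far more RNA of hormone-cell markers than of stem cell markers. In the mutant libraries those sums were 184 to 1572 and 1219 to 1639 CPM. All 16 hormone-cell genes were called lower, with Gh and Pomc left at 2.28 and 79.3 CPM on average. Of 16 stem cell genes 5 were called higher and 6 lower, beside 30.7% higher and 28.5% lower among all tested genes. Epcam was at -1.57 and Aldh1a2 at -2.95 log2 units. In bulk samples fewer cells of a type and less RNA per cell cannot be told apart.

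Of the 10 cytokine genes, 7 were called higher in the APC-mutant cells, 0 were called lower, 2 were tested without a call and Csf2 was too low to be tested. Among all tested genes 30.7% were called higher and 28.5% lower. The called genes were Il6, Il1a, Il1b, Il1rn, Il33, Tnf and Csf1. All mutant libraries lay above all wildtype libraries for Il6, Il1b, Il1rn and Csf1, as they did for 23.0% of all tested genes. Il6, Il1rn and Tnf passed the low-count filter only through their mutant counts, so their inclusion among the tested genes was tied to their being high there. The same holds for Irak3, Casp4, Csf2rb, Csf3r, Csf3, Osm, Il15, S100a8, S100a9 and Ptprc, which are named further on. Among genes counted in the lists below it also holds at least for Il36rn of the IL-1 family and for the macrophage markers Aif1 and Itgam.

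**Figure D1:**
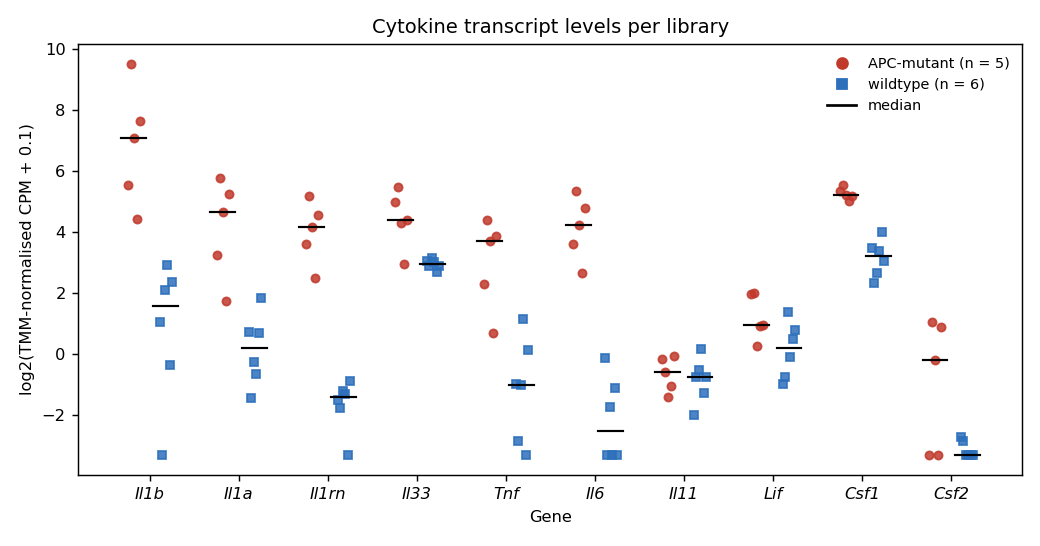
Level of each cytokine gene in every library, on the log2 scale of CPM plus a pseudocount of 0.1, with the median of each genotype as a bar. Il6, Il1b, Il1rn and Csf1 show no overlap between the 5 APC-mutant and 6 wildtype libraries, whereas Il11 and Lif overlap widely.

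Il1b, encoding the secreted pyrogen IL-1 beta, had the highest level of the 10 genes in the mutant cells also after division by gene length, at 118.9 CPM per kilobase, ahead of Il1a at 13.2 and Il6 at 8.66 CPM per kilobase. APC-mutant replicates 1, 2, 4, 5 and 6 held 46.5, 734, 135, 21.2 and 197 CPM of it (ENSMUSG00000027398.14, chromosome 2, 129206490 to 129213059, GRCm39). In the wildtype libraries it ran from 0 to 7.39 CPM with a median of 3.06 CPM. Every mutant library exceeded every wildtype library, but the mutant libraries themselves spanned 34.6-fold, with replicate 2 far above the rest. The rise was 6.19 ± 1.0 log2 units (SE, adjusted p = 0.0001), 5.005 without APC-mutant replicate 2 and 6.81 with limma-voom. Il1b made up 41.3% to 80.8% of the length-corrected sum of the 10 genes in the mutant libraries and 0% to 35.7% in the wildtype libraries.

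Il1a, encoding the membrane-bound and nuclear IL-1 alpha (ENSMUSG00000027399.2, chromosome 2, 129141530 to 129151892), measured 9.43, 54.4, 24.9, 3.2 and 38.2 CPM in APC-mutant replicates 1, 2, 4, 5 and 6. The wildtype libraries ran from 0.265 to 3.50 CPM with a median of 1.11 CPM. APC-mutant replicate 5 lay just below wildtype replicate 6, the highest control, so the genotypes overlapped at that point. The rise was 4.26 ± 0.71 log2 units (SE, adjusted p = 0.000133). It was 5.05 against the ROSAJC controls alone and 3.38 against the ROSAE controls alone (adjusted p = 0.026). Of its exonic bases 11.25% overlap the gene Gm14023, and the counts were made without strand.

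Il1rn encodes the antagonist that occupies the IL-1 receptor without signalling (ENSMUSG00000026981.16, chromosome 2, 24226865 to 24241506). APC-mutant replicates 1, 2, 4, 5 and 6 held 12.0, 36.3, 17.8, 5.49 and 23.4 CPM. The wildtype libraries held between 0 and 0.443 CPM, with a median of 0.275 CPM, which rests on 29 counts in all. The antagonist gene rose with the agonist genes and had the smallest adjusted p of the 10 genes, at 3.67e-07, for a rise of 6.22 ± 0.56 log2 units (SE). The length-corrected level of Il1b was 11.3, 58.7, 22.0, 11.2 and 24.5 times that of Il1rn in APC-mutant replicates 1, 2, 4, 5 and 6. In the 4 wildtype libraries with counts of both genes the ratio was between 22.6 and 71.4, a range that overlaps the mutant one.

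Il33 was present in every control, as Il1a was (ENSMUSG00000024810.17, chromosome 19, 29902514 to 29938118). It stood at 31.6, 44.1, 19.7, 7.67 and 20.7 CPM in APC-mutant replicates 1, 2, 4, 5 and 6, and between 6.37 and 8.71 CPM, with a median of 7.63 CPM, in the wildtype libraries. Replicates 1, 2, 4 and 6 lay above every control and replicate 5 lay within the wildtype range. The rise was 1.70 ± 0.32 log2 units (SE, adjusted p = 0.000387). Averaged over the wildtype libraries, Il33 had the highest length-corrected level of the 10 genes, at 2.64 CPM per kilobase. It was not highest in each of them: Il1b reached 3.87 CPM per kilobase in wildtype replicate 4.

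Receptors and signalling genes of the IL-1 family were mostly higher too. Of 16 tested members of the list 13 were called higher and 1 lower, with a median of 1.42 log2 units against 0.02 over all tested genes. Il1r1, the signalling receptor, averaged 33.2 ± 13.0 CPM (SD, n = 5) in mutant cells against 14.3 ± 7.0 CPM (SD, n = 6), a rise of 1.22 ± 0.33 (adjusted p = 0.00509). The decoy receptor gene Il1r2 rose by 2.17 ± 0.55, a call that ended with limma-voom (1.68, adjusted p = 0.0637). The co-receptor gene Il1rap stood at 17.1 ± 1.02 and 17.6 ± 3.76 CPM (-0.04 ± 0.16, adjusted p = 0.836). By the smallest p the list was led by Sigirr, an inhibitory receptor of the family, at 3.44 ± 0.18 log2 units. It was followed by the adaptor Myd88 at 1.90 ± 0.18 (11.3% of exonic bases inside another gene), the inhibitory kinase-like Irak3 at 4.24 ± 0.40 and the inflammatory caspase Casp4 at 5.41 ± 0.64 (6.03 without wildtype replicate 1, 6.94 against the ROSAE controls alone and 6.28 with limma-voom). The signalling kinase gene Irak1 was the member that fell, at -0.69 ± 0.13. The IL-33 receptor gene Il1rl1 was not tested, with 1, 182, 89, 28 and 100 counts in the mutant libraries and 10 counts over the wildtype libraries. Its normalised total was 46.0 times higher in the mutant cells, with a 95% counting interval of 24.8 to 96.7. Casp1, Il18r1, Il18rap, Il36a, Il36b and Il36g were also too low to be tested.

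Il6 encodes the gp130 cytokine most often measured as a SASP readout (ENSMUSG00000025746.12, chromosome 5, 30218112 to 30224979). APC-mutant replicates 1, 2, 4, 5 and 6 reached 11.9, 40.8, 18.7, 6.26 and 27.4 CPM. Wildtype replicates 2, 4 and 6 had no count, and replicates 1, 3 and 5 had 16, 3 and 7 counts, or at most 0.802 CPM. The groups did not overlap, and no control came near the lowest mutant library. The rise was 6.51 ± 0.77 log2 units (SE, adjusted p = 5.18e-06), 7.56 without wildtype replicate 1 and 7.39 with limma-voom. The ratio of normalised totals was 91.4, with a 95% counting interval of 62.2 to 140.3.

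The gp130 ligand genes Il11 and Lif were not called. Il11 (ENSMUSG00000004371.16, chromosome 7, 4775372 to 4785858) measured 0.799, 0.560, 0.277, 0.382 and 0.863 CPM in APC-mutant replicates 1, 2, 4, 5 and 6 and between 0.150 and 1.02 CPM in wildtype, with 58 counts in each genotype. The groups overlapped fully, with a log2 fold change of 0.18 ± 0.48 (SE, adjusted p = 0.761). Lif, encoding leukaemia inhibitory factor (ENSMUSG00000034394.15, chromosome 11, 4207557 to 4222514), was 3.78, 3.87, 1.11, 1.79 and 1.83 CPM in the same mutant libraries. The wildtype libraries ran from 0.401 to 2.51 CPM with a median of 1.07 CPM. Only replicates 1 and 2 of the mutant libraries lay above all controls, and the difference of 1.07 ± 0.48 log2 units missed the threshold (SE, adjusted p = 0.0719). It passed without APC-mutant replicate 4 (1.25, adjusted p = 0.0439), without wildtype replicate 3 (1.41, adjusted p = 0.0216) and with limma-voom (1.22, adjusted p = 0.0409).

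Receptor genes of the gp130 family moved in opposite directions. The ligand-binding Il6ra fell: controls averaged 29.2 ± 8.24 CPM (SD, n = 6) and mutants 6.32 ± 2.12 CPM (SD, n = 5), every mutant library lying below every control (-2.21 ± 0.26, adjusted p = 4.8e-06). Among all tested genes 28.5% were called lower, and the share separated downward in this way is not given here. The shared chain Il6st rose by 0.89 ± 0.19 to 142 ± 32.7 CPM, Il11ra1 by 1.36 ± 0.13 and Lifr by 1.66 ± 0.15. Of the 20 list members, all tested, 11 were called higher and 3 lower, with a median of 1.05. The oncostatin M receptor gene Osmr rose by 4.25 ± 0.37. Ctf1, encoding another gp130 ligand, was called lower at -0.58. Its call ended without APC-mutant replicate 1, 2, 4 or 6 (-0.58, -0.54, -0.54 and -0.54), without wildtype replicate 2 or 6 (-0.47 and -0.51) and against the ROSAJC controls alone (-0.46). Stat3, which these receptors activate, averaged 204 CPM in mutant and 206 CPM in control cells (-0.01 ± 0.28, adjusted p = 0.971). The feedback inhibitor gene Socs3 rose by 1.21 ± 0.36 (adjusted p = 0.0106).

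Tnf, encoding tumour necrosis factor (ENSMUSG00000024401.15, chromosome 17, 35418357 to 35420983), measured 4.79, 21.03, 13.0, 1.53 and 14.4 CPM in APC-mutant replicates 1, 2, 4, 5 and 6. It ran from 0 to 2.10 CPM with a median of 0.398 CPM in wildtype. APC-mutant replicate 5 lay below wildtype replicate 4, the highest control, and the other mutant libraries lay above all controls. The rise was 4.10 ± 0.84 log2 units (SE, adjusted p = 0.000728), 4.91 without wildtype replicate 4 and 4.785 with limma-voom. Of 13 tested genes of TNF receptors and adaptors 12 were called higher and 1, the ubiquitin ligase gene Birc2, lower (-0.53), with a median of 1.19. Tnfrsf1b, the receptor typical of immune and endothelial cells, rose by 5.47 ± 0.43 and averaged 70.0 ± 15.3 CPM (SD, n = 5) against 1.61 ± 1.13 CPM (SD, n = 6). Tnfrsf1a, the widely expressed receptor, rose by 1.60 ± 0.15, the lymphotoxin beta receptor gene Ltbr by 1.79 ± 0.15 and the adaptor Traf5 by 2.62 ± 0.25.

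Csf1, the growth factor of macrophages (ENSMUSG00000014599.11, chromosome 3, 107648364 to 107667785), was the most even of the called genes. It stood at 40.6, 46.7, 37.3, 32.01 and 36.1 CPM in APC-mutant replicates 1, 2, 4, 5 and 6, and between 4.92 and 15.7 CPM, with a median of 9.24 CPM, in wildtype. The mutant libraries spanned 1.46-fold and none overlapped a control. The rise was 2.04 ± 0.25 log2 units (SE, adjusted p = 7.21e-06). Csf2 (ENSMUSG00000018916.6, chromosome 11, 54138097 to 54140493) had 39, 34 and 14 counts in APC-mutant replicates 2, 6 and 4, none in replicates 1 and 5, and 2 counts over the wildtype libraries. The ratio of normalised totals was 50.02, with a counting interval of 13.4 to 419.6, and 12% of its exonic bases overlap the gene Gm12223. Without a filter on low counts it was called higher (5.30, adjusted p = 0.00151).

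The CSF receptor genes split in the same comparison. Csf1r, a defining receptor of macrophages, rose by 3.49 ± 0.55, with levels of 34.3, 250.9, 86.3, 19.9 and 167 CPM in APC-mutant replicates 1, 2, 4, 5 and 6 against 5.83 to 15.3 CPM in wildtype. Of its exonic bases 15.1% overlap another gene. Csf2rb, the signalling chain for CSF2, rose by 7.27 ± 0.48 to 41.5 ± 20.2 CPM (SD, n = 5) and by 8.61 against the ROSAE controls alone, although reads may be split with the close copy Csf2rb2. Csf2ra, the specific chain, averaged 21.5 ± 6.66 CPM in mutant and 27.9 ± 6.80 CPM in control cells (-0.37 ± 0.23, adjusted p = 0.181). Csf3r rose by 3.87 ± 0.49 and the granulocyte factor gene Csf3 by 4.86 ± 0.71 (3.88 without APC-mutant replicate 2). Of 7 tested genes of this list 4 were called higher and none lower, with a median of 3.49.

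**Figure D2:**
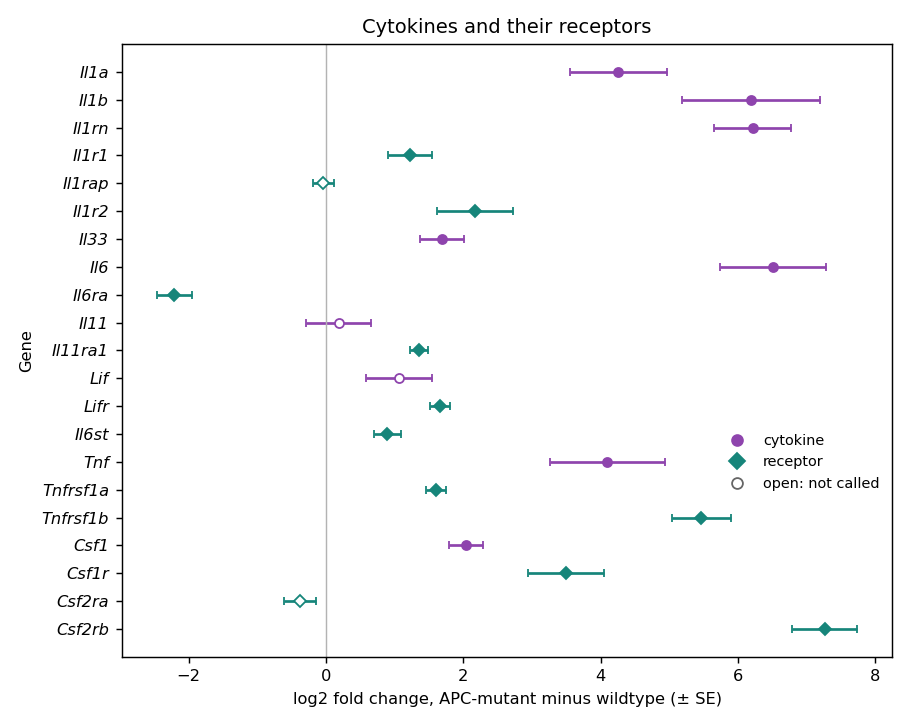
Log2 fold change, APC-mutant minus wildtype, with its standard error from the edgeR fit, for the 9 tested cytokine genes (circles) and 12 tested receptor genes (diamonds). Il6 lies at 6.51 while its ligand-binding receptor gene Il6ra lies at -2.21; open symbols were not called.

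Genes that carry the cytokine signal to the nucleus were higher in part. Of 15 NF-kappaB subunit and inhibitor genes 9 were called higher and 1 lower, with a median of 0.90. Nfkb1 rose by 2.49 ± 0.24, the inhibitor Nfkbia by 1.44 ± 0.18, Rela by 0.90 ± 0.12 and Relb by 2.20 ± 0.39, and the kinase gene Chuk fell by 0.53. Of 16 tested SASP regulators 10 were called higher and 0 lower, with a median of 0.85. The RNA-decay factor gene Zfp36l1 rose by 1.84 ± 0.13, the DNA-sensing pathway genes Sting1 and Cgas by 2.77 ± 0.21 and 2.55 ± 0.33, and the kinase gene Mapkapk2 by 0.86 ± 0.18. Gata4 was too low to be tested. Of 16 tested genes of the senescent state all were called higher, with a median of 2.7. These include Lmnb1 and Hmgb2, whose loss and not gain is known to mark senescent cells, at 0.84 ± 0.20 (adjusted p = 0.002) and 0.92 ± 0.21 (adjusted p = 0.00194). Igfbp7, Cdkn1a, Rb1 and Cdkn2b had the smallest p-values, at 6.39, 4.08, 1.03 and 2.55 log2 units, and 14.9% of the exonic bases of Rb1 lie inside another gene. Cdkn2a, Mmp3, Mmp10 and Mmp13 were not tested.

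The promoters of Il6, Il1a, Il1rn and Il1b are shown because these called genes kept the same order across the mutant libraries (given with the spread among libraries). Their upstream bases do not all hold the same transcription factor motifs, although Il1a and Il1rn both held AP-1 letters only. Tnf was called and kept that order too, but its window, which held none of the motifs searched, is not printed. All 10 genes matched 1 or more RefSeq promoter windows on GRCm38.p6, 14 in all, and the 250 bases before each start were searched on both strands. Capitals mark matches to AP-1 (TGANTCA), the C/EBP half-site pattern TTNNGCAAN, the NF-kappaB motif kappa-B and the TCF/LEF core TCAAAG, with none overlapping. For Il1rn the first of 3 windows is printed.
Il6 (chr5:30012864-30013113, + strand): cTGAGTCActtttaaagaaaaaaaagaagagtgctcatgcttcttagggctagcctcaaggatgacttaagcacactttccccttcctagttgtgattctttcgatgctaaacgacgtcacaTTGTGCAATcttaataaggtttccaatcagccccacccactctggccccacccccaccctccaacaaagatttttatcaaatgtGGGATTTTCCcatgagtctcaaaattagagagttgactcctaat
Il1a (chr2:129309973-129310222, - strand): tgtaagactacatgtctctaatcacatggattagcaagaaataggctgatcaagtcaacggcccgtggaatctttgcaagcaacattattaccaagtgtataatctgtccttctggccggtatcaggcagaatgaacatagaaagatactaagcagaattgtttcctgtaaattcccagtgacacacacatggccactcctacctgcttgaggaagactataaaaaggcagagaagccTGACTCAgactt
Il1rn (chr2:24336610-24336859, + strand): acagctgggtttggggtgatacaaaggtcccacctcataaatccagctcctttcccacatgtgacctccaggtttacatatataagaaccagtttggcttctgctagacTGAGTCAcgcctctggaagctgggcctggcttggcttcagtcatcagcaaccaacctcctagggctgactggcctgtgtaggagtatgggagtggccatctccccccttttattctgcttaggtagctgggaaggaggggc
Il1b (chr2:129371140-129371389, - strand): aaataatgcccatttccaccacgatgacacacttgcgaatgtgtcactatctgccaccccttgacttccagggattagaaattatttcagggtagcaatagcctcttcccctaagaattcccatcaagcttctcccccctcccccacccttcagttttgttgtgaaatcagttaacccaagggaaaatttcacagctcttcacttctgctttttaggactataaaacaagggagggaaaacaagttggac
The Il6 window held AP-1 letters from base -249, C/EBP letters from base -128 and kappa-B letters from base -44, counted from the start. AP-1 letters were found for 5 of the 10 genes (Il6, Il1a, Il1rn, Il11 and Lif). They were in 5 of the 14 windows of the 10 genes and in 6.75% of all 32851 windows of the same length. Kappa-B letters were found for Il6, Lif and Csf1 (3 of the 14 windows, and 7.25% of all windows). C/EBP letters were found for Il6, Il33 and Csf2 (3 of 14, and 9.52%) and TCF/LEF letters for Csf1 alone (1 of 14, and 13.8%). The Il1b and Tnf windows held none of the 4 patterns. Il11 and Lif, which were not called, carried AP-1 letters as well.

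Among the mutant libraries Il6, Il1a, Il1b, Il1rn and Tnf followed a single order, highest in replicate 2, then 6, 4, 1 and 5. The order was noticed in Il1b after its values were seen, and 1.89% of all tested genes had it. Csf2 was counted in replicates 2, 6 and 4 only. Csf1, Il33, Lif and Il11 had other orders. The span from the lowest to the highest mutant library was 34.6-fold for Il1b, 17.0-fold for Il1a, 13.8-fold for Tnf, 6.61-fold for Il1rn, 6.52-fold for Il6 and 5.75-fold for Il33.

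Markers of macrophages, endothelial cells and mesenchymal cells were mostly higher in the mutant cells as well. Among the mutant libraries the macrophage sum had the order of Il1b. The mesenchymal sum differed from that order only in replicates 1 and 4, at 2280 and 2167 CPM. The mast cell and basophil sum differed only in replicates 5 and 1, at 404.6 and 121.1 CPM. The endothelial sum had another order. All 14 macrophage markers were called higher in the mutant cells, although Ptprc, Aif1 and Itgam passed the low-count filter only through their mutant counts. None of the 14 was at 0 over a whole genotype. Summed, they reached 355, 2218, 841, 328 and 1864 CPM in APC-mutant replicates 1, 2, 4, 5 and 6, the same order as Il1b, and 23.5 to 73.0 CPM in wildtype. Lyz2, which has a close copy in Lyz1, and C1qb were the most abundant, at 290.3 ± 208 and 174 ± 139 CPM (SD, n = 5) in mutant libraries against 1.63 ± 1.01 and 10.5 ± 3.38 CPM (SD, n = 6). Endothelial markers were called higher for 12 of 12 genes and summed to between 5030 and 7459 CPM in mutant and 19.4 to 114.7 CPM in control cells, with replicate 5 highest among the mutants. The endothelial genes Plvap and Emcn averaged 1402 ± 342 and 956 ± 104 CPM (SD, n = 5) in mutant cells. Mesenchymal and pericyte markers summed to between 782 and 3424 CPM in mutant and 136.7 to 288 CPM in control cells, with 11 of 12 called higher, and were led by Col3a1 and Dcn, with rises of 3.86 ± 0.51 and 3.53 ± 0.19. Dissociation stress genes summed to between 6998 and 14531 CPM in mutant and 2244 to 10553 CPM in control cells. Of these 18 genes 9 were called higher and Btg2 lower, beside 30.7% higher and 28.5% lower among all tested genes. Their median was 0.78 log2 units against 0.02 over all tested genes. Hspb1, Ier3, Hspa1a and Dnajb1 had the smallest p-values, with rises of 4.76, 4.18, 2.99 and 1.38 log2 units. Reads of Hspa1a may be split with its near-identical copy Hspa1b. The stress sum did not follow the order of Il1b among the mutant libraries: replicates 6, 4, 1, 2 and 5 had 14531, 14324, 13837, 12626 and 6998 CPM, with replicate 2, highest in Il1b, next to lowest. Of the stress genes Zfp36 and Junb did keep the order of Il1b, whereas Jun was highest in APC-mutant replicate 1. In APC-mutant replicates 2, 6, 4, 1 and 5 Zfp36 stood at 1269, 735, 601, 560 and 344 CPM. Junb stood at 1073, 1031, 1012, 882 and 433 CPM in the same libraries. Wildtype replicate 4, the control with the most Il1b, had a stress sum of 6952 CPM. Wildtype replicate 2, which had no count of Il1b or Il6 at the highest depth among controls, had the lowest stress and macrophage sums of all 11 libraries. The part of these cells and of dissociation in the cytokine results was not tested.

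**Figure D3:**
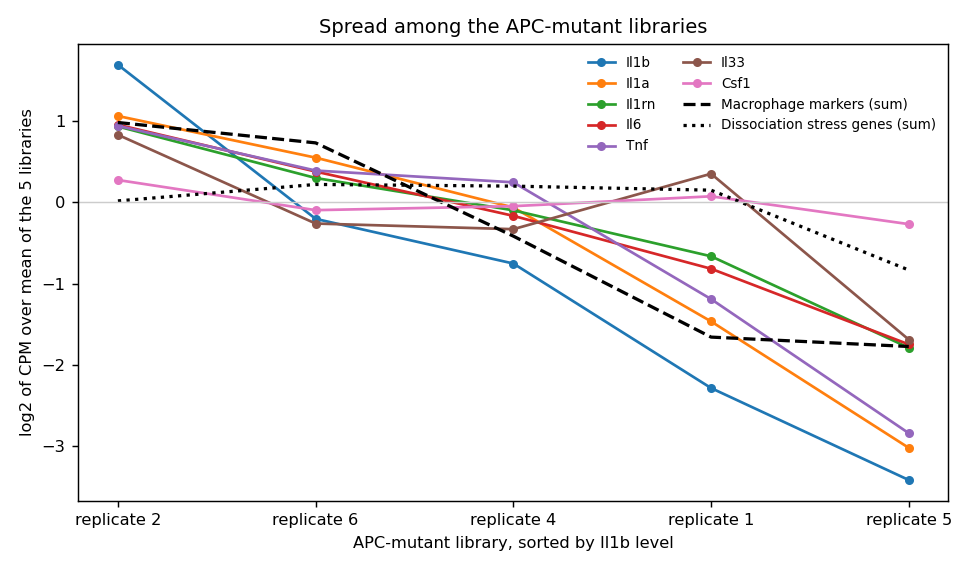
Levels in the 5 APC-mutant libraries relative to their mean, on the log2 scale, for 7 called cytokine genes (solid lines), for the summed macrophage markers (dashed) and for the summed dissociation stress genes (dotted). Libraries are sorted by Il1b, and lines only join the values of a gene; Il1b spans 34.6-fold and Csf1 1.46-fold.

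Set against the macrophage sum of the same library, the genes separated into groups, a description made after the values were seen. Per 100 CPM of macrophage markers Il1b was 6.47 to 33.1 CPM in mutant and 0 to 15.5 CPM in control cells, Il1a 0.977 to 2.97 and 1.13 to 4.79 CPM, and Tnf 0.465 to 1.55 and 0 to 4.42 CPM. On this scale the genotypes overlapped for these 3 genes. Il6 ranged from 1.47 to 3.36 CPM in mutant libraries and from 0 to 2.17 CPM in wildtype, where replicate 1 alone of the controls reached the mutant range. Il1rn did not overlap, at 1.26 to 3.37 CPM in mutant and 0 to 0.971 CPM in control cells. Il33 and Lif were lower in every mutant library on this scale, at 1.11 to 8.89 against 9.44 to 31.1 CPM and at 0.0980 to 1.07 against 1.08 to 7.38 CPM. Il11 was lower as well (0.0253 to 0.225 against 0.407 to 2.15 CPM), and Csf1 overlapped in APC-mutant replicate 1 only (1.94 to 11.4 against 11.3 to 29.95 CPM). The macrophage sum itself averaged 1121 CPM in mutant and 47.1 CPM in control cells, so any gene that rose less than the sum comes out lower on this scale. For Il33, Lif and Il11 the lower ratio reflects that denominator and not a fall in their own levels. The denominator contains Csf1r, and the control ratios of Il6, Il1rn and Tnf rest on few cytokine counts, 26, 29 and 70 over the wildtype libraries.

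**Figure D4:**
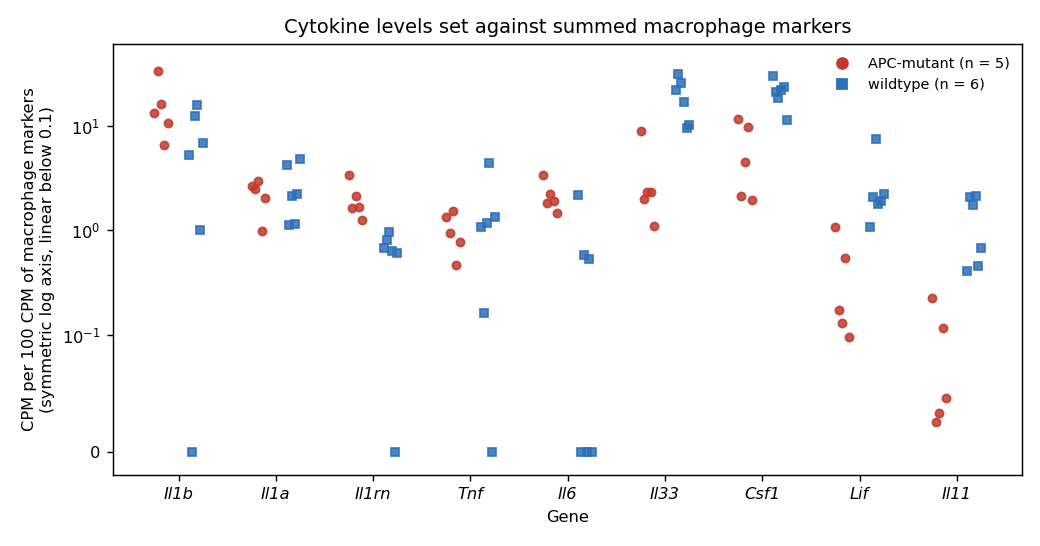
Level of 9 cytokine genes in each library per 100 CPM of 14 summed macrophage markers, on a symmetric log axis that is linear below 0.1. Mutant and wildtype libraries overlap for Il1b, Il1a, Tnf and Il6, whereas mutant libraries are higher for Il1rn and lower for Il33, Lif and Il11.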

How the data were processed

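Cells were sorted and frozen, and their RNA went through column purification, SMARTer amplification and paired poly(A) sequencing of 150 bases, per the labels' protocols. What the authors deposited is a table of unnormalised fragment counts. Per the file headers it was made by featureCounts 2.0.1 with GENCODE M33 annotation of GRCm39, without strand, and a pair counts for each gene it overlaps. STAR 2.7.9a, DESeq2 and Trim Galore 0.6.5 are also named in the submitters' processing notes. The header names 30 alignment files, and the 11 with a column were used. Symbols were matched by identifier for 51948 genes (91.2%), and 5 list genes by a RefSeq synonym.

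Counts were tested with edgeR 4.0.16 in R 4.3.3 (filterByExpr, TMM scaling, quasi-likelihood F test on genotype), after a check on simulated counts. Standard errors are the log2 fold change over the square root of F. Alternatives were other scalings, DESeq2 1.42.0, limma-voom 3.58.1, other filters, each library left out, the replicate number as a block, and either control prefix alone. Beside the 10 cytokine genes and their receptors, the text names the 4 called genes of each pathway list with the smallest p and the 2 most abundant of each marker list. Some genes that this rule picks are not reported here. Osm, Cxcl2, Nlrp3, Stat3, Socs3, Cpa3, Ms4a2, Lmnb1, Hmgb2, Cntf, Clcf1, Il34, Il4, Il18, Il36rn, Aif1, Itgam, Jun, the members that fell and the untested genes were named after their values were seen. The genes and lists were chosen with earlier results of these data known. No label ties libraries to individual animals, and the p-values therefore reflect variation among libraries, which may be technical. Intervals and floors cover counting error only, since amplified fragments carry no molecular identifiers.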

Additional observations from a re-analysis of the deposited data

Results flagged for a closer look

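Of 20 sets of values examined, 10 genes in 2 genotypes, 1 held a library far from the others: Il1b in APC-mutant replicate 2, at 734.4 CPM with the next library, replicate 6, at 197 CPM. Its gap to the next value was 0.753 of the whole range, above Dixon's critical value for 5 samples. For normally distributed values chance alone sets apart about 1 set in 20. The rule was applied to CPM without a log, which need not be so distributed, and was not applied on the log2 scale. In this library the macrophage sum was 2218 CPM, the highest of all 11. The mast cell and basophil sum was 1711 CPM and the mesenchymal and pericyte sum 3424 CPM, both also the highest. Without it the rise of Il1b was 5.005 log2 units (adjusted p = 0.00018). The part of these cells in the value was not tested.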

How the results depend on the processing

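The count of 7 cytokine genes called higher and 0 lower was kept within 7 to 8 and at 0 across 21 alternatives. An eighth call was Lif with limma-voom and without APC-mutant replicate 4 or wildtype replicate 3, and Csf2 without a filter. Of 188 values of single genes under alternatives 182 kept their direction and side of the threshold. The uncalled Il11 turned sign, to -0.0026 without APC-mutant replicate 6, -0.013 without wildtype replicate 1 and -0.00083 against the ROSAJC controls alone, with single libraries left out giving -0.01338 to 0.4861, and the reversed values had adjusted p from 0.983 to 0.999. It was not tested under the stricter filter. Its low depth, 58 counts in each genotype, limits it. Highest adjusted p-values over alternatives were 0.026 for Il1a, 0.0254 for Il33, 0.0195 for Tnf, 0.0128 for Il1b, 0.00125 for Il1rn, 0.000976 for Il6 and 0.000672 for Csf1. Over all genes 5995 to 6368 were called higher and 5479 to 5882 lower when a library was left out. With the replicate block 7 cytokine genes were called, 5695 genes were higher and 5016 lower, and the call of Socs3 ended (adjusted p = 0.0501). Against the ROSAE controls alone the rises of Plvap, Emcn, Igfbp7, S100a9, Col3a1, Il1r2 and Il1r1 were larger, at 9.54, 8.67, 7.23, 7.25, 4.74, 2.79 and 1.82, and those of Lyz2, Osm, Hspb1, Csf3r and Hspa1a smaller, at 6.80, 5.604, 4.12, 3.27 and 2.34. Same-numbered libraries correlated between -0.151 and 0.0492 in their deviations from the genotype means. No values of differently numbered libraries were set beside these, so they cannot decide whether the numbers pair libraries. The labels do not say. Leaving out 3 libraries that stood apart, APC-mutant replicate 5 and wildtype replicates 2 and 5, an alternative chosen after seeing the data, gave 7 calls.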

Other observations

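Cytokine genes outside the 10 went in different directions. Ctf1 was called lower, as given above, and Cntf, Clcf1, Il34, Il4 and Il18 were not called, with log2 differences of -0.41, 0.20, 0.08, 1.21 and 1.04. Of the exonic bases of Cntf 78.9% overlap another gene, so its counts may belong to that gene. The untested Il25 and Il21 had 2 and 0 counts over the mutant libraries and 36 and 16 over the wildtype libraries. Osm, a gp130 ligand of myeloid cells, stood at 3.94, 89.9, 10.6, 4.2 and 26.5 CPM in APC-mutant replicates 1, 2, 4, 5 and 6 and at most 0.985 CPM in wildtype, a rise of 6.33 ± 1.02 log2 units (5.07 without APC-mutant replicate 2 and 7.10 without wildtype replicate 6). Of 22 other interleukin and interferon gamma genes only 4 were high enough to be tested, and Il16, Il15 and Il23a were called higher, at 3.39, 3.13 and 1.8 log2 units, with 17.4% of the exonic bases of Il16 inside another gene. Il10, an anti-inflammatory interleukin gene, was not tested and had 30, 152, 65, 3 and 40 counts in the mutant libraries against 8 over the wildtype libraries. The chemokine gene Cxcl2 rose by 4.76 (4.11 without APC-mutant replicate 2).

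Mast cell genes split the mutant libraries in another way. The carboxypeptidase gene Cpa3 had 4 counts in APC-mutant replicate 1 and 8312, 2227, 1559 and 5876 counts in replicates 2, 4, 5 and 6, and none in wildtype. The tryptase gene Tpsb2, which has close copies, had 6 counts in replicate 1 and 9774, 3017, 1796 and 6650 in the others, against 1 count over the wildtype libraries. Cpa3, Mcpt4, Fcer1a and Ms4a2 were at 0 over the wildtype libraries. Hdc, the histamine-synthesising enzyme gene, was 159.6 ± 53.3 CPM (SD, n = 5) in mutant and 31.7 ± 7.37 CPM (SD, n = 6) in control cells. The part of these cells in the cytokine values was not tested. Neutrophil genes S100a9 and S100a8 stood at 46.8 ± 42.7 and 26.7 ± 35.3 CPM in mutant libraries, highest in replicate 6 at 120.0 and 88.6 CPM, and their rises of 6.11 and 5.96 were 5.39 and 4.71 without that library. The neutrophil and lymphocyte list summed to between 16.4 and 218 CPM in mutant and 8.86 to 24.4 CPM in control cells. Only 3 of its 13 genes were tested: S100a9, S100a8 and the B cell gene Cd79a, which fell by 3.52. Ly6g, Retnlg, Nkg7 and Ncr1 were at 0 over the wildtype libraries but were not tested, so no rise was called for them.

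With the genotype means subtracted, the list genes most like each cytokine gene over the 11 libraries, by Pearson correlation of log2 CPM, were C1qc and Tyrobp for Il1a (0.918 and 0.889), Zfp36 and Junb for Il1b (0.919 and 0.912), and Nlrp3 and Ptprc for Il1rn (0.940 and 0.911). For Il33 they were Col1a2 and Gdf15 (0.885 and 0.853), for Csf1 Rela and Sox9 (0.878 and 0.796), for Tnf Il1b and Il1rn (0.877 and 0.857), and for Il6 Cntfr and Kit (0.810 and 0.789). Il11 was most like Tnip1 (0.840) and Lif most like Cntf (0.736). Zfp36 and Junb, the genes most like Il1b, are both on the dissociation stress list. Wildtype replicate 2 had no count of Il1b, so its value there was set by the pseudocount of 0.1 CPM. It was also the lowest library in Zfp36 and Junb, at 37.6 and 146.4 CPM. The correlations without it were not computed. Il6 had no count in wildtype replicates 2, 4 and 6, and Il1rn and Tnf had none in replicate 5. The correlations describe shared libraries and depths and carry no test.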
